A study of Homo sapiens with 3 samples.

Results

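The transcripts of 10 genes of tumor necrosis factor (TNF) receptor signaling and the caspase-8 complex were examined in Caki-1 renal carcinoma cells depleted of RBCK1. They were chosen by name from the 44591 genes of the deposited table. The genes are *TNFRSF1A*, *TRADD*, *RIPK1*, *RIPK2*, *TRAF2*, *BIRC2*, *BIRC3*, *FADD*, *CASP8* and *CFLAR*, and each was found as 1 protein-coding entry. Caki-1 is an established human line that the labels describe as clear cell renal cell carcinoma. One culture received a non-targeting siRNA (si-Control), and the others received an siRNA to RBCK1, either si-RBCK1 #1 or si-RBCK1 #2, which the labels call by the protein name HOIL-1. RNA was taken 48 h later. The general transfection protocol uses 10 nmol/L siRNA. No ligand, drug or other treatment is named for these samples. Each condition had 1 library, so no value below has a replicate check, no test between conditions was possible, and no p-value is given. Intervals cover the counting of reads only, and PCR copies are not independent molecules. Read counts were worked back from the deposited values and are the smallest that these allow.

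TNF receptor 1, encoded by *TNFRSF1A*, binds TNF at the cell surface and gathers the adaptor TRADD, the kinase RIPK1, TRAF2 and the ubiquitin ligases cIAP1 and cIAP2 (*BIRC2* and *BIRC3*) into complex I. RBCK1 is a subunit of the linear ubiquitin chain assembly complex, which attaches linear ubiquitin chains at this complex and so helps to recruit the IKK kinases of NF-kB signaling. When ubiquitination fails, RIPK1 or TRADD can join FADD and caspase-8 in a cytosolic death complex, and the caspase-8-like protein FLIP (*CFLAR*) restrains that complex. RIPK2 is a related kinase that acts below the NOD receptors and is likewise modified with linear chains.

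The siRNA sequences are shown because the RBCK1 level and the matches in other transcripts refer to them. They are the sense strands, 5′ to 3′, with the 7 bases that pair with guide positions 2 to 8 (the seed) in capitals.
si-RBCK1 #1: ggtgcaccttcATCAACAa
si-RBCK1 #2: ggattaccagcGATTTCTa
In the longest protein-coding RBCK1 transcript of GENCODE v29 they match bases 1307 to 1325 and 1749 to 1767. The full 19-base sequence of either siRNA was found in 0 of the 10 genes' longest protein-coding transcripts. The 7-base match of si-RBCK1 #1 was found in 2 of the 10 (*CASP8* and *CFLAR*), and 22.3% of 19669 such transcripts held it. That of si-RBCK1 #2 was also found in 2 of the 10 (*BIRC2* and *CFLAR*), with 25.9% of all transcripts. *CFLAR* has by far the longest of these transcripts, with 14672 bases against 2930 for *CASP8* and 4066 for *BIRC2*.
The matches within coding sequences are given with 9 bases on each side, the match in capitals.
CASP8 from base 872, si-RBCK1 #1: tgtgcccaaATCAACAagagcctgc
CASP8 from base 1088, si-RBCK1 #1: tgtctgatcATCAACAatcacaatt
BIRC2 from base 2289, si-RBCK1 #2: aagaagccaGATTTCTtacctacca
The other *BIRC2* match precedes the coding sequence, and the 4 matches in *CFLAR* (2 for each siRNA) follow it. A match is a description of the sequence and was not tested as a site.

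The libraries were scaled by 36344428 to 40442939 reads, and 12263 to 12473 genes had at least 1 RPKM (reads of a gene divided by its length in kilobases and by library depth). Throughout, 3 values in a row stand in the order si-Control, si-RBCK1 #1, si-RBCK1 #2. RBCK1 levels were 33.3, 9.97 and 12.3 RPKM, so that 29.9% and 36.8% of the control level was left. Of 8 markers of renal tubule or simple epithelium, *PAX8*, *KRT8* and *KRT18* were at 1 RPKM or more in every library. *PAX2*, *EPCAM*, *CDH1* and *CA9*, the last a typical gene of clear cell carcinoma, were under 1 RPKM in every library. *KRT19* (0.423, 0.975 and 1.38 RPKM) passed 1 RPKM only with si-RBCK1 #2. The 8 epithelial markers summed to 286, 398 and 519 RPKM. The keratins *KRT8* (65.6, 172 and 238 RPKM) and *KRT18* (95.3, 142 and 172 RPKM) were higher with both siRNAs, while the renal factor *PAX8* was lower (124, 82.5 and 107 RPKM). The part of these differences in the results was not tested. The 5 leukocyte markers summed to at most 0.361 RPKM in any library (*CD3E* at 0 in all), the 4 endothelial markers to at most 0.0635 RPKM and the 4 fibroblast markers to 3.88 to 5.53 RPKM. Most of the fibroblast sum was *COL1A1* (4.68, 3.21 and 4.41 RPKM). In RNA from a whole culture, fewer expressing cells and less RNA per cell cannot be told apart.

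All 10 genes were expressed in every library. RPKM is corrected for gene length, so levels can be set side by side. *TNFRSF1A* had the highest mean level (50.5 RPKM), followed by *BIRC3* (31.6 RPKM), *RIPK2* (30.8 RPKM), *BIRC2* (21.4 RPKM), *CASP8* (18.4 RPKM), *TRADD* (18.02 RPKM), *FADD* (17.5 RPKM) and *TRAF2* (16.3 RPKM). *CFLAR* (6.55 RPKM) and *RIPK1* (6.17 RPKM) were the lowest. Only 2 steps in this order were free of overlap between the ranges of neighbours over the 3 libraries, those from *RIPK2* to *BIRC2* and from *TRAF2* to *CFLAR*. Within a library the order differed. *RIPK2* was the highest of the 10 with si-Control and *TNFRSF1A* with either si-RBCK1. The gene length implied by the values was 15921 nt for *CFLAR* and 1496 to 6911 nt for the other 9 genes. Isoforms were not measured here, and a level per such a length depends on which of them a cell makes. The levels of the 10 genes summed to 191, 233 and 228 RPKM. *TNFRSF1A* made up 16.1%, 25.9% and 26.5% of this sum, and *RIPK2* 19.5%, 11.4% and 12.6%.

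**Figure D1:**
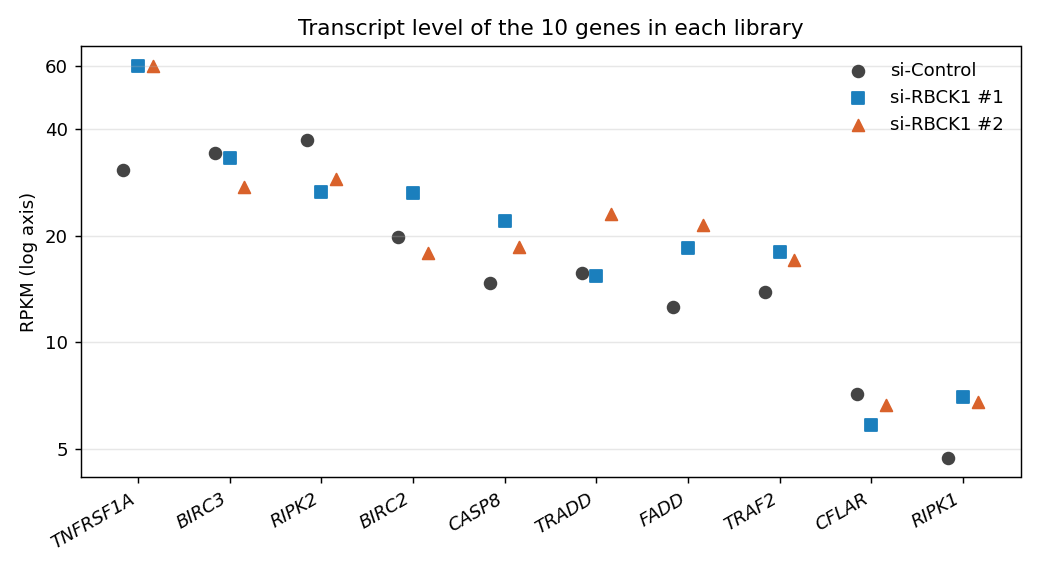
RPKM (log axis) of the 10 genes in each of the 3 libraries, 1 point per library, ordered by mean level. *TNFRSF1A* stands at 30.7 RPKM with si-Control and near 60 RPKM with either si-RBCK1, and *CFLAR* and *RIPK1* lie lowest in all 3 libraries.

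Against si-Control, the receptor *TNFRSF1A* was close to 2-fold higher with either siRNA, and *FADD*, *CASP8*, *RIPK1* and *TRAF2* were higher by smaller amounts. *RIPK2* was lower with both and *CFLAR* by less. *BIRC3* was near the control with si-RBCK1 #1 and lower with si-RBCK1 #2, and *TRADD* and *BIRC2* also differed between the si-RBCK1 libraries. Differences were taken on the log2(RPKM + 1) scale, which understates changes of low genes, over the 12403 genes whose mean reached 1 RPKM. All 10 genes passed this filter. With si-RBCK1 #1, 1 of the 10 (*TNFRSF1A*) was at least 1.5-fold higher, against 12.1% of all genes tested, and 0 were at least 1.5-fold lower, against 11.6% (23.7% in either direction). With si-RBCK1 #2, 2 of the 10 (*TNFRSF1A* and *FADD*) were at least 1.5-fold higher, against 11.3%, and 0 were lower by that much, against 9.32% (20.6% in either direction). The study's methods use a 2-fold limit together with a p-value limit. Here the 2-fold limit was applied alone, on the log2(RPKM + 1) scale. At this limit, 0 of the 10 were higher or lower with si-RBCK1 #1, against 2.91% and 3.27% of all genes (6.18% in either direction). With si-RBCK1 #2, 0 of the 10 passed it, against 2.5% higher and 2.27% lower (4.76% in either direction). The shares of the 10 genes past these limits are thus near those of all genes. The median difference of the 10 genes was 0.37 with si-RBCK1 #1 and 0.30 with si-RBCK1 #2, beside medians of 0.02 and 0.03 over all genes. In each comparison 6 of the 10 were above 0, where 51.5% and 53.5% of all genes were. Both comparisons share the si-Control library, so a deviation of that culture would stand in both.

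**Figure D2:**
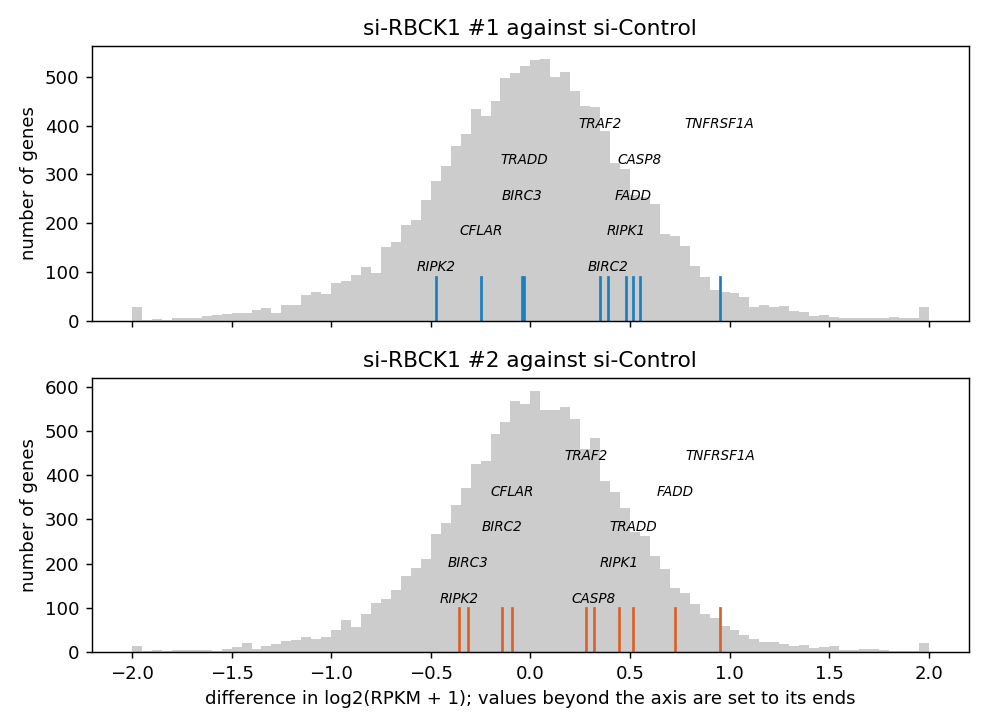
Histograms of the difference in log2(RPKM + 1) from si-Control over 12403 genes (grey, number of genes per bin), with si-RBCK1 #1 above and si-RBCK1 #2 below, and coloured lines at the 10 genes (values beyond the axis are drawn at its ends). The 10 genes spread from -0.47 to 0.95 with si-RBCK1 #1 and from -0.36 to 0.95 with si-RBCK1 #2, and *TNFRSF1A* lies in the upper tail of both.

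*TNFRSF1A* (chromosome 12 from 6437923 to 6451283, minus strand, hg19) had levels of 30.7, 60.3 and 60.4 RPKM, from 2657, 5715 and 5143 reads. Both si-RBCK1 libraries stood well above the control and at almost the same level. The increase was 96.4% and 96.7%, a log2 ratio on reads of 0.97 (95% counting interval 0.91 to 1.04) and 0.98 (0.91 to 1.04). Among all genes tested, 415 differed at least as far upward with si-RBCK1 #1 and 366 with si-RBCK1 #2. The si-RBCK1 libraries differed from each other by a log2 ratio of 0.0020 (interval -0.053 to 0.057).
The 250 bases before the annotated *TNFRSF1A* start are shown because this gene had the largest difference of the 10. They come from RefSeq (GRCh38.p14, chr12:6342077-6342326, minus strand).
TNFRSF1A promoter: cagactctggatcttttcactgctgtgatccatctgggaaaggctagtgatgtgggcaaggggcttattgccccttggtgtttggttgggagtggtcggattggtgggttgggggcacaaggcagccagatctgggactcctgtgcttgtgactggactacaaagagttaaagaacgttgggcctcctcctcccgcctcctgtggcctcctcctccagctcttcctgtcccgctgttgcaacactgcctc
The stretch has a GC content of 56.8%. It held neither the NF-kB consensus nor the GC box GGGCGG on either strand.

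The adaptor *TRADD* (chromosome 16 from 67188088 to 67193812, minus strand) had levels of 15.7, 15.4 and 23.0 RPKM, from 869, 930 and 1248 reads. Only si-RBCK1 #2 stood apart. The log2 ratio to si-Control was -0.03 (interval -0.17 to 0.10) with si-RBCK1 #1, a difference not detectable at this depth, and 0.55 (0.42 to 0.67) with si-RBCK1 #2. Between the siRNAs the log2 ratio was 0.58 (0.45 to 0.70), larger than either difference from the control. The ratio of *TNFRSF1A* to *TRADD* RPKM was 1.95 with si-Control (interval 1.81 to 2.11), 3.92 with si-RBCK1 #1 (3.66 to 4.21) and 2.63 with si-RBCK1 #2 (2.47 to 2.80).

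*RIPK1* (chromosome 6 from 3064122 to 3115421, plus strand), the kinase whose ubiquitination separates survival from death signaling, had levels of 4.72, 6.998 and 6.79 RPKM, from 763, 1238 and 1080 reads. Both si-RBCK1 libraries were above the control by similar amounts. The log2 ratios were 0.57 (interval 0.44 to 0.70) and 0.52 (0.39 to 0.66). The siRNAs differed by a log2 ratio of -0.04 (interval -0.16 to 0.08). An antisense gene within *RIPK1* was at 0.510 to 0.698 RPKM, and the strand setting of the read counting is not given in the sources used here.

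The related kinase *RIPK2* (chromosome 8 from 90769975 to 90803292, plus strand) went the other way. Its levels were 37.2, 26.5 and 28.8 RPKM, from 3548, 2771 and 2706 reads. Both si-RBCK1 libraries were below the control, at 71.3% and 77.5% of it. The log2 ratios were -0.49 (interval -0.56 to -0.42) and -0.37 (-0.44 to -0.30), the lowest of the 10 genes with each siRNA. Of the NOD receptors that signal through RIPK2, *NOD1* had 1.55, 2.27 and 2.26 RPKM and *NOD2* no more than 0.0267 RPKM.

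*TRAF2* (chromosome 9 from 139780965 to 139821067, plus strand), which brings the cIAP ligases to the receptor, had levels of 13.9, 17.96 and 17.1 RPKM, from 1168, 1654 and 1411 reads. It was above the control in both si-RBCK1 libraries, with log2 ratios of 0.37 (interval 0.26 to 0.48) and 0.30 (0.18 to 0.41). The microRNA gene *MIR4479* lies within *TRAF2* on the same strand (3.05, 3.48 and 6.20 RPKM), so reads of the pair cannot be told apart there.

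*BIRC2* and *BIRC3* are neighbours on chromosome 11 with 7778 bases between them, on the plus strand. *BIRC2* (from 102217913 to 102249401) had levels of 19.9, 26.4 and 17.9 RPKM, from 3128, 4546 and 2778 reads, so the si-RBCK1 libraries stood on opposite sides of the control. The log2 ratios were 0.41 (interval 0.34 to 0.47) and -0.15 (-0.22 to -0.07), and the siRNAs differed by -0.56 (-0.63 to -0.49). On the log2(RPKM + 1) scale only 2.94% of genes lay lower with si-RBCK1 #2 relative to si-RBCK1 #1. The 7-base seed match in *BIRC2* is that of si-RBCK1 #2, whereas the shorter match to guide positions 2 to 7 is present in *BIRC2* for both siRNAs. The part of these matches in the difference was not tested.
*BIRC3* (from 102188181 to 102210134), an NF-kB target that encodes cIAP2, had levels of 34.2, 33.2 and 27.4 RPKM, from 8740, 9278 and 6880 reads. The level with si-RBCK1 #1 was close to the control and that with si-RBCK1 #2 was below it. The log2 ratios were -0.05 (interval -0.09 to -0.0027) and -0.32 (-0.37 to -0.28). The ratio of *BIRC3* to *BIRC2* was 1.72 with si-Control (interval 1.66 to 1.80), 1.26 with si-RBCK1 #1 (1.22 to 1.31) and 1.53 with si-RBCK1 #2 (1.46 to 1.60), so the share of *BIRC3* was lower with both. How reads that fit both paralogs were counted is not given in the sources used here.

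*FADD* (chromosome 11 from 70049269 to 70053508, plus strand) links death receptors to caspase-8, which it binds through its death effector domain. Its levels were 12.6, 18.4 and 21.5 RPKM, from 860, 1380 and 1446 reads. Both si-RBCK1 libraries were above the control, by 46.5% and 70.8%, with log2 ratios of 0.55 (interval 0.43 to 0.68) and 0.77 (0.65 to 0.90). An antisense gene within *FADD* is listed at 0 in all 3 libraries.
*CASP8* (chromosome 2 from 202098166 to 202152434, plus strand), the initiator caspase of the extrinsic pathway, had levels of 14.7, 22.0 and 18.6 RPKM, from 1977, 3238 and 2457 reads. It was above the control with both siRNAs and further with si-RBCK1 #1, the siRNA whose 7-base seed matches lie in its coding sequence (both siRNAs have the shorter match in *CASP8*). The part of those matches was not tested. Its log2 ratios came to 0.58 (interval 0.50 to 0.66) and 0.34 (0.25 to 0.42).
*CFLAR* lies on the same strand of chromosome 2 (from 201980827 to 202037411), with 60754 bases and the paralog *CASP10* between it and *CASP8*. Its levels were 7.15, 5.86 and 6.64 RPKM, from 4201, 3771 and 3843 reads. Both si-RBCK1 libraries were below the control, at 82.0% and 92.9% of it, with log2 ratios of -0.29 (interval -0.35 to -0.22) and -0.11 (-0.17 to -0.04). The antisense gene *CFLAR-AS1* had 0.624, 1.24 and 0.714 RPKM, and a pair of pseudogenes within *CFLAR* had at most 0.256 RPKM.

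**Figure D3:**
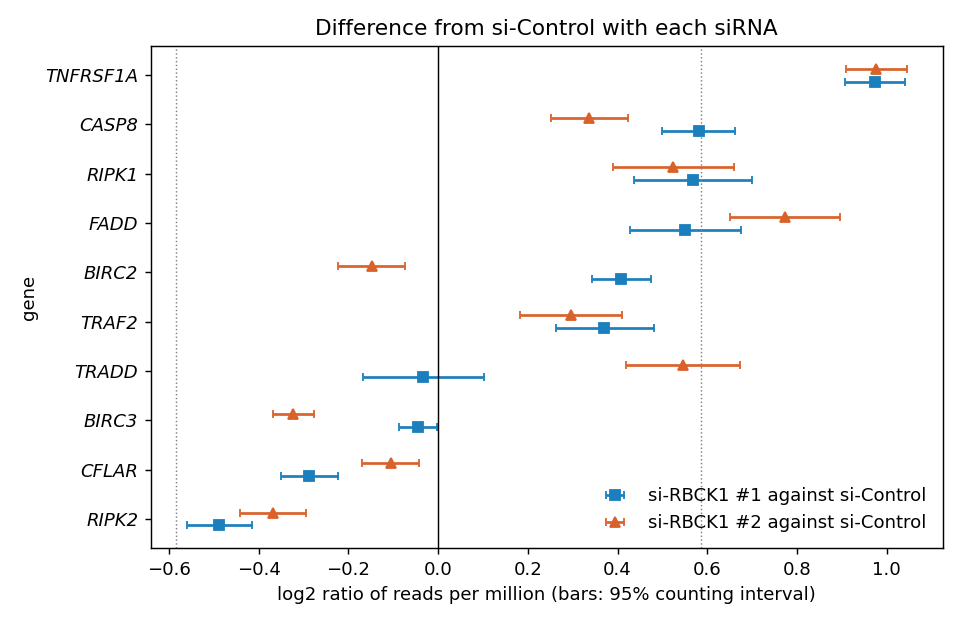
Log2 ratio of depth-scaled reads to si-Control for the 10 genes, squares for si-RBCK1 #1 and triangles for si-RBCK1 #2, with 95% counting intervals as bars and dotted lines at 1.5-fold. *TNFRSF1A* lies near 1 and *RIPK2* is lowest with both siRNAs, while *BIRC2* and *TRADD* differ between the si-RBCK1 libraries.

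*CASP8* and *FADD* were higher and *CFLAR* lower. The ratios of *CASP8* and *FADD* to *CFLAR* thus differed from si-Control by more than the single genes, by construction. The ratio of *CASP8* to *CFLAR* RPKM was 2.06 with si-Control (counting interval 1.95 to 2.17), 3.75 with si-RBCK1 #1 (3.58 to 3.94) and 2.80 with si-RBCK1 #2 (2.66 to 2.94). It was thus 1.82 and 1.36 times its control value. The ratio of *FADD* to *CFLAR* was 1.76 (1.63 to 1.89), 3.14 (2.95 to 3.35) and 3.23 (3.04 to 3.44), that is, 1.79 and 1.84 times its control value. The ratio of *CASP8* to *FADD* was 1.17 (1.08 to 1.27), 1.19 (1.12 to 1.27) and 0.865 (0.810 to 0.923), that is, 1.02 and 0.739 times its control value. At the receptor, *TNFRSF1A* to *RIPK1* was 6.50 (5.99 to 7.05), 8.61 (8.10 to 9.17) and 8.89 (8.32 to 9.50), and *TRAF2* to *RIPK1* was 2.94 (2.68 to 3.23), 2.57 (2.38 to 2.76) and 2.51 (2.32 to 2.72). The size of a ratio depends on the gene lengths used, but its change between libraries does not. These are ratios of transcripts and not of proteins.

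The siRNAs share a target, and their libraries can be set against each other without si-Control. Of the 10 genes, 0 were at least 1.5-fold higher with si-RBCK1 #2 than with si-RBCK1 #1, against 3.85% of all genes, and 0 were lower by that much, against 2.32% (6.18% in either direction). At 2-fold, 0 of the 10 passed, against 0.718% of all genes higher and 0.661% lower (1.38% in either direction). The median difference of the 10 genes was -0.02, beside 0.01 over all genes. *TRADD* (0.58) and *BIRC2* (-0.56) had log2 read ratios farthest from 0. *BIRC3* (-0.28, interval -0.32 to -0.23), *CASP8* (-0.24, -0.32 to -0.17), *FADD* (0.22, 0.11 to 0.33), *CFLAR* (0.18, 0.12 to 0.25) and *RIPK2* (0.12, 0.04 to 0.20) differed by more than their counting error. *TNFRSF1A*, *RIPK1* and *TRAF2* (-0.08, -0.18 to 0.03) differed by less.

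Promoter stretches were available for 8 of the 10 genes (not for *TRADD* and *RIPK2*), with 16 annotated starts. The NF-kB consensus was found on either strand in 2 of these 16 windows of 250 bases, 1 of *BIRC3* and 1 of *CFLAR*, and in 9.96% of 35116 windows of all genes. The other windows of *CFLAR* held no NF-kB consensus. The GC box GGGCGG was found in 9 of the 16 windows, of 6 genes, and in 42.6% of all windows. Windows of the same gene overlapped in *RIPK1* and *BIRC2*, and a GC box of *RIPK1* was counted in more than a single window. Both windows with the NF-kB consensus are shown, with its matches in capitals, from RefSeq (GRCh38.p14, plus strand). The *BIRC3* window is chr11:102317234-102317483 and the *CFLAR* window chr2:201118466-201118715.
BIRC3 promoter: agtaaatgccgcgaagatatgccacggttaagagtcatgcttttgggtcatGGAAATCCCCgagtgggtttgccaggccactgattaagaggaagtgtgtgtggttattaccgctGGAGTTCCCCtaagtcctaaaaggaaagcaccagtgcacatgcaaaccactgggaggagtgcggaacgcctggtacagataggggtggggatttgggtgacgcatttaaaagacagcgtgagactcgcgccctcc
CFLAR promoter: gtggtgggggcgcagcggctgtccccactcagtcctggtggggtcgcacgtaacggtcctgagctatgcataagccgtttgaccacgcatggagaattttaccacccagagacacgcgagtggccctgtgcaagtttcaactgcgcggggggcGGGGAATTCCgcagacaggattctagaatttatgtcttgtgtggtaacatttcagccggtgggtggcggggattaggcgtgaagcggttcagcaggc
Both genes lay below si-Control with each siRNA, *BIRC3* only slightly with si-RBCK1 #1. Their log2(RPKM + 1) differences were -0.04 and -0.31 for *BIRC3* and -0.25 and -0.09 for *CFLAR*. A match describes these letters only and was not tested as a binding site. The part of the matches in these differences was not tested either.

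The rest of the pathway was examined in 11 lists of 130 other genes, of which 92 passed the filter. The lists overlap, and the totals of 130 and 92 hold no repeats. *TNFAIP3* counts in the lists of both the deubiquitinases and brakes and the TNF-induced feedback genes. Over the 92 genes, 19 were at least 1.5-fold higher and 5 lower with si-RBCK1 #1, and 14 higher and 6 lower with si-RBCK1 #2. Over all genes tested, 12.1% were higher and 11.6% lower with si-RBCK1 #1, and 11.3% higher and 9.32% lower with si-RBCK1 #2, and the count in every list below stands beside these shares. With a pseudocount of 5 RPKM in place of 1, the 19 and 5 list genes with si-RBCK1 #1 became 11 and 3. Under that setting the shares of all genes fell too, to 5.51% higher and 4.76% lower with si-RBCK1 #1. The medians were 0.12 and 0.12, beside 0.02 and 0.03 over all genes. All differences in the lists are on the log2(RPKM + 1) scale, and values are given for si-RBCK1 #1 first. At 2-fold, 4 list genes were higher and 0 lower with si-RBCK1 #1, and 4 were higher and 1 lower with si-RBCK1 #2, beside 2.91% and 3.27%, and 2.5% and 2.27%, of all genes.

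Of 18 ligands of the TNF superfamily only 4 passed the filter, and 2 of these were at least 1.5-fold higher with each siRNA (list medians 0.44 and 0.69). They were *TNFSF9* (4-1BB ligand, at 43.4, 109.7 and 76.9 RPKM, with differences of 1.32 and 0.81) and *CD70* (differences of 0.79 and 0.80). *TNF* itself gave 2, 6 and 13 reads in the 3 libraries, at most 0.213 RPKM, and did not pass.
Of 28 other receptors of the family 12 passed, with 3 and 2 at least 1.5-fold higher and 0 lower (medians 0.35 and 0.22). The death receptor *FAS* had levels of 4.36, 12.0 and 10.2 RPKM, from 344, 1037 and 791 reads, above 2-fold with each siRNA (differences of 1.28 and 1.06). The lymphotoxin receptor *LTBR* was higher by 0.65 and 0.62, and *CD40* passed 1.5-fold only with si-RBCK1 #1 (0.59 and 0.41). *TNFRSF1B*, the second TNF receptor, was under 1 RPKM in every library (0.737, 0.256 and 0.307 RPKM).

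Among the 21 adaptors and kinases of complex I, all of which passed, 3 were at least 1.5-fold higher and 2 lower with si-RBCK1 #1, and 2 higher and 2 lower with si-RBCK1 #2 (medians 0.07 and 0.02). *TRAF4* was higher with both (0.94 and 0.70), *TAB1* passed 1.5-fold with si-RBCK1 #1 (0.61 and 0.54), and of the lower genes *TRAF5* passed it with si-RBCK1 #1 (-0.61 and -0.42) and *TRAF7* with si-RBCK1 #2 (0.17 and -0.74). *MAP3K14*, the NF-kB-inducing kinase, was higher (0.86 and 0.84), and *TAB2*, a ubiquitin-binding partner of the kinase TAK1, was lower (-0.91 and -0.98). The IKK subunit *IKBKG*, uncertain because a near-identical pseudogene can take its reads, had differences of -0.01 and -0.23. Of the 8 genes listed for ubiquitin conjugation at complex I, *RNF31* and *SHARPIN* included, 0 were past 1.5-fold with si-RBCK1 #1. With si-RBCK1 #2, 1 was lower (*UBE2D2*, -0.52 and -0.86), and the list medians were -0.0024 and -0.10. The other subunits of the linear chain complex, *RNF31* (0.24 and 0.29) and *SHARPIN* (-0.12 and -0.20), differed by less than 1.5-fold and in opposite directions. Of the 12 deubiquitinases and brakes, 1 was at least 1.5-fold higher and 1 lower with si-RBCK1 #1 and 0 and 1 with si-RBCK1 #2 (medians 0.23 and 0.08). *TNFAIP3*, encoding A20, was higher with si-RBCK1 #1 alone (0.68 and -0.0013), and *TAX1BP1* was lower with both (-0.85 and -0.74). *CYLD* and *OTULIN* remove linear chains. The differences of *CYLD* were -0.32 and -0.28. *OTULIN* had 0.22 and 0.57, under 1.5-fold on this scale, but its RPKM with si-RBCK1 #2 was 1.59 times the control.

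Of the 12 other caspases and activators 10 passed, with 5 at least 1.5-fold higher with si-RBCK1 #1 and 4 with si-RBCK1 #2 and 0 lower in either (medians 0.41 and 0.22). *CASP10*, the paralog beside *CASP8*, had levels of 1.82, 3.30 and 3.42 RPKM, from 448, 893 and 832 reads, with differences of 0.61 and 0.65. *CASP2* was higher by 0.80 and 1.08, the executioner *CASP6* by 0.84 and 0.63, and *APAF1*, the scaffold of the apoptosome, by 0.77 and 0.78. *CASP9*, which the apoptosome activates, passed 1.5-fold with si-RBCK1 #1 (0.62 and 0.36). Of 8 IAP genes and their antagonists 5 passed, with 1 at least 1.5-fold higher with each siRNA (*BIRC5*, 0.67 and 0.66) and 0 lower (medians -0.01 and 0.24). *XIAP*, a direct caspase inhibitor, had differences of -0.56 and -0.18, and its RPKM was 0.655 and 0.876 times the control. Of 7 genes of RIP kinases and necroptosis 5 passed, 2 were at least 1.5-fold higher with each siRNA and 0 lower (medians 0.08 and 0.14). *MLKL*, the pore-forming effector of necroptosis, had levels of 3.67, 11.3 and 11.6 RPKM, from 379, 1275 and 1174 reads, with differences of 1.39 and 1.43. The other was the mitochondrial phosphatase *PGAM5* (0.83 and 0.72). *RIPK3*, the kinase that activates MLKL, gave 1, 1 and 0 reads as the smallest counts that its values allow. A count of 0 allows up to 3 reads, so its level could not be compared.
Among 7 other death effector domain proteins and caspase-8 regulators, *DEDD2* was higher (1.04 and 1.11) and *FAF1*, which binds FAS, was lower (-0.95 and -0.93), and the other 5 stayed under 1.5-fold on this scale (medians 0.04 and 0.13). Of 10 TNF-induced feedback genes, 2 were at least 1.5-fold higher with si-RBCK1 #1 (*TNFAIP3* and *NFKBIA*, the latter 0.72 and 0.26) and 0 with si-RBCK1 #2, while the adhesion gene *ICAM1* was lower with both (-0.70 and -1.07). The medians of this list were 0.27 and -0.06.

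Of the 92 list genes, *MAP3K14*, *DEDD2* and *CASP2* were nearest to *TNFRSF1A* in their pair of differences, at distances of 0.15, 0.18 and 0.20 on the log2 scale. This likeness rests on 3 libraries and describes these values only.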

How the data were processed

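Total RNA of 3 Caki-1 cultures was depleted of ribosomal RNA, made into libraries with a directional kit and sequenced in paired ends. Per the labels, the submitters' processing notes name hg19, TopHat2, FastQC, Trimmomatic and HTSeq; gene annotation and strand setting are not given in the sources used here. The authors deposited 1 RPKM value per gene and library, with 1 entry that is not a number. The deposited table also holds the authors' own comparison of control and treated values (fold change, p-value and q-value), which was not used.

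Each si-RBCK1 library was compared with si-Control on log2(RPKM + 1), keeping genes whose mean reached 1 RPKM. Library totals came from short RNAs of up to 200 nt, whose values are whole multiples of 1 read. For each of 158 genes, the shortest length of up to 50000 nt was sought at which all 3 values gave whole reads (within 0.002 of a read), and 158 were solved. Reads are thus the smallest that the values allow. Intervals are exact Clopper-Pearson intervals (95%) on these reads. With 1 library per condition no test was run. The 2 siRNAs were not treated as replicates. Members and lists were chosen with earlier results of these data known.

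Named genes are RBCK1, the 10 members, list genes past 2-fold with either siRNA, 14 list genes chosen by name (1 of them is not reported here) and the 3 genes nearest to the member with the largest difference. *TRAF4*, *TRAF5*, *TRAF7*, *TAB1*, *CASP6*, *CASP9*, *APAF1*, *PGAM5*, *CD70*, *LTBR*, *CD40*, *NOD1*, *NOD2*, *TAB2*, *UBE2D2*, *TAX1BP1*, *BIRC5*, *FAF1* and *NFKBIA* were named after their values were seen. Alternatives were pseudocounts of 0.1 and 5 RPKM, equal medians or totals, other filters, protein-coding genes only and a shorter seed. Steps were tested on simulated data. The scripts ran in Python 3.11.15 with scipy 1.17.1, numpy 2.4.6 and pandas 2.3.3, and plots were drawn with matplotlib 3.10.9.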

Additional observations from a re-analysis of the deposited data

Results flagged for a closer look

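*BIRC2* stood on opposite sides of si-Control with the 2 siRNAs, and both counting intervals left out 0. Its log2(RPKM + 1) difference was 0.39 with si-RBCK1 #1 and -0.14 with si-RBCK1 #2. The difference between the siRNAs was not tested, since each had 1 library.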

How the results depend on the processing

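No paired analysis was possible because the siRNAs were not replicated. With a pseudocount of 5 RPKM the median of the 10 genes with si-RBCK1 #1 was 0.29, the list genes at least 1.5-fold higher or lower with it were 11 and 3, and RBCK1 differences were -1.36 and -1.15. With 0.1 RPKM the RBCK1 difference with si-RBCK1 #1 was -1.73. A larger pseudocount shrinks differences of low genes by construction. Matches to guide positions 2 to 7 were found in 5 and 7 of the 10 genes, beside 57.3% and 63.2% of all 19669 transcripts. *RIPK2*, *BIRC2*, *BIRC3*, *CASP8* and *CFLAR* held that of each siRNA, and *TRAF2* and *FADD* that of si-RBCK1 #2 alone. The part of these matches in the differences was not tested. A shorter match must be found at least as often. Counts of the 10 genes past 1.5-fold were the same under all 7 alternatives. The other filters and the limit to protein-coding genes could not change any value of the 10 genes, however. All 10 are protein-coding and had means above 5 RPKM. Of 210 single differences of the 10 genes, these fixed ones included, 10 moved by more than their counting error. The sign changed in 1, that of *TNFRSF1A* between the siRNAs (-0.04 with equal medians). The share of all genes at least 1.5-fold higher was 5.51% and 4.81% (lower, 4.76% and 3.83%) with 5 RPKM, and 4.17% and 3.73% (lower, 4.15% and 3.29%) with no filter.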
